A study of Mus musculus with 19 samples.

Results

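Spermatogonia that carry 1 mutant copy of *Dnmt3l* or *Pld6* were compared with wild-type spermatogonia, with both mouse lines in one comparison, to see how much retrotransposon RNA could have changed when 1 of the 2 copies is lost. The comparison used every heterozygous and every wild-type library of the series, 11 of 19 samples. They were 3 *Dnmt3l*+/- (Dnmt3l het), 3 *Pld6*+/- (Pld6 het), 2 *Dnmt3l*+/+ (Dnmt3l WT) and 3 *Pld6*+/+ (Pld6 WT) libraries, and each line had its own wild-type mice. The other 8 samples were the homozygous KO libraries (3 *Dnmt3l*-/- and 5 *Pld6*-/-), which served only to give a scale. All cells were EpCAM-positive spermatogonia sorted from testes at postnatal day 7, EpCAM being a surface protein of undifferentiated spermatogonia, and all mice came from lines backcrossed to C57BL/6J. The labels name no tissue-specific deletion. The numbers of libraries follow the sample labels, whereas the methods text gives 3 *Dnmt3l* wild-type and 2 *Dnmt3l* heterozygous mice.

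Retrotransposons are mobile sequences that copy themselves through RNA, and male germ cells silence them by DNA methylation laid down before birth. DNMT3L, which has no catalytic activity of its own, stimulates the *de novo* DNA methyltransferases and is needed for this methylation. PLD6 is a mitochondrial protein needed to make piRNAs, the small RNAs that guide silencing to transposons that are being transcribed. LINE-1 (L1) elements carry a promoter in their 5′ region followed by ORF1, then ORF2, which encodes the reverse transcriptase, and a 3′ region. Endogenous retroviruses such as IAP, MMERVK10C and MMERGLN consist of an internal region (names ending in -int or _I, and MMERVK10C) with coding sequences and of flanking LTRs, which hold the promoter. SINEs such as B1 and B2 are short elements without a reading frame of their own. The files give each of these regions as a subfamily of its own, in RPM, the mapped reads scaled to a library's mapped total.

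The 11 libraries listed 259 subfamilies, of which 105 reached 1 RPM in at least 2 libraries and were tested. The 154 others were too low to test. Added up over all subfamilies, RPM lay between 3382 and 4413 in the 5 Dnmt3l libraries but between 2103 and 2730 in the 6 Pld6 libraries, so line was kept as a block. Read depth is unknown, because too few low values lay on a common step to recover whole reads. The files hold retrotransposons alone, so neither germ cell markers nor the *Dnmt3l* and *Pld6* transcripts could be checked here, and a change of RNA per cell cannot be told apart from a change in the mixture of cells. The paper itself reports high germ cell purity of its sorted spermatogonia and largely unaffected spermatogonium markers in the mutants. Whether heterozygous samples were part of that marker comparison is not stated. Pld6 het replicate 1 stood apart from the other libraries. It listed 159 subfamilies at 0, against 60 to 90 in the other 10 libraries, and 24 of the 105 tested subfamilies were at 0 there and in no other of the 11 libraries. The correlation of log2(RPM + 1) with the other Pld6 het libraries was 0.925 and 0.938 for this library, and 0.970 between the other two. Its summed RPM, 2183, was inside the range of the others. The main results are therefore given with and without it.

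**Figure D1:**
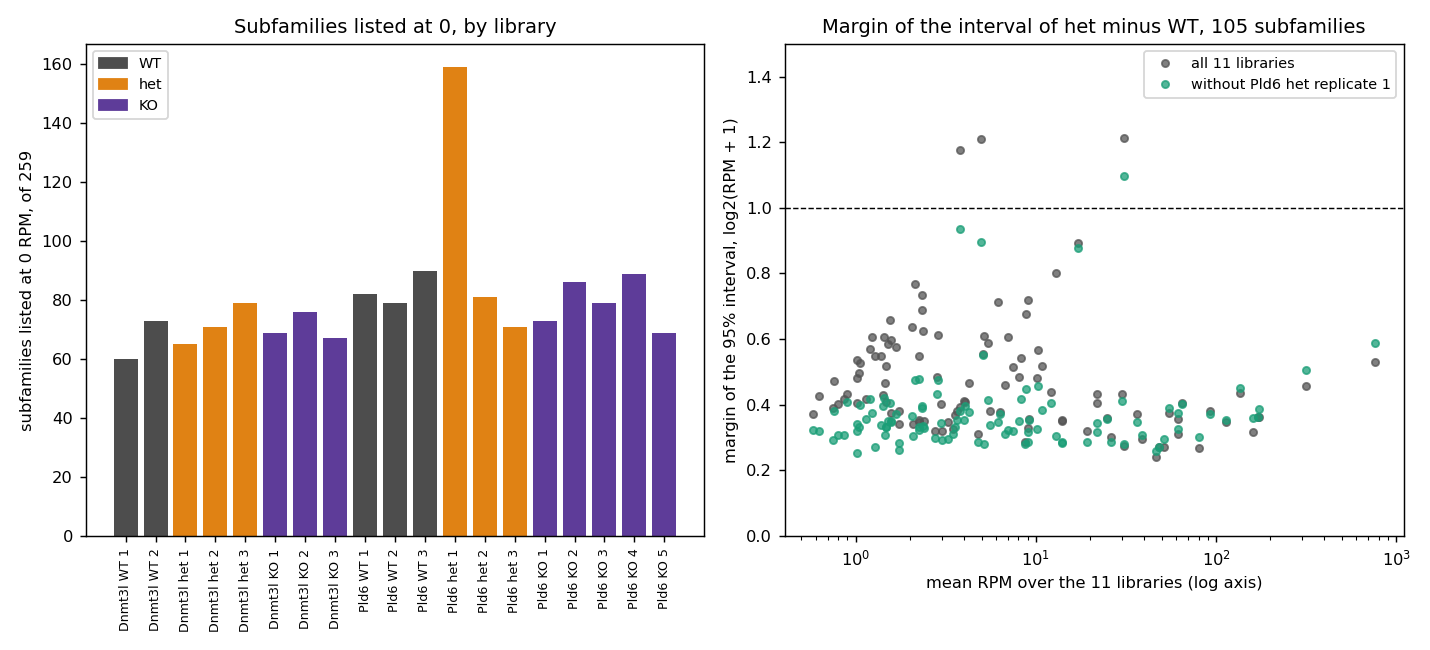
Left, the number of subfamilies listed at 0 RPM, of 259, in each of the 19 libraries, with bars coloured by genotype. Right, the margin of the 95% interval (the distance from the difference to either bound) of heterozygous minus wild type on the log2(RPM + 1) scale against the mean RPM (log axis) for the 105 tested subfamilies, with all 11 libraries (grey) and without Pld6 het replicate 1 (green), the dashed line marking 2-fold. Pld6 het replicate 1 listed 159 at 0 and the other 18 libraries at most 90, and the median margin was 0.42 with it and 0.35 without it.

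No subfamily was higher and no subfamily was lower in heterozygous than in wild-type libraries past the threshold (0 of 105, 0%, in either direction). The test was limma on log2(RPM + 1) with line as a block and Benjamini-Hochberg adjustment over the 105, and the smallest adjusted p was 0.72. At an unadjusted p under 0.05, 0 were higher and 2 (1.9%) were lower. The differences were negative for 77 subfamilies (73.3%) and positive for 28, with a median of -0.13 on the log2(RPM + 1) scale and a range from -0.55 to 0.32. Without Pld6 het replicate 1, 0 subfamilies passed again, the smallest adjusted p was 0.98, 67 differences (63.8%) were negative and the median was -0.03. After rescaling the libraries to a common median ratio, 62 differences were negative.

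The 95% intervals give the size of change, averaged over both mutations, that these 11 libraries could have missed. For 93 of the 105 subfamilies (88.6%), the whole interval lay within a 2-fold change of RPM + 1 in either direction, and for 51 (48.6%) it lay within 1.5-fold. Each interval was computed for 1 subfamily, with no allowance for the number of subfamilies. The bounds were not symmetric. A 2-fold increase lay above the interval of 102 subfamilies and a 1.5-fold increase above that of 94, whereas a 2-fold decrease lay below the interval of 94 and a 1.5-fold decrease below that of 57. Among the 50 subfamilies with a mean of at least 5 RPM, 43 intervals lay within 2-fold. For lower subfamilies a 2-fold change of RPM + 1 is more than a 2-fold change of RPM, and with a pseudocount of 0.1 in place of 1 only 61 of the 105 intervals lay within 2-fold. Without Pld6 het replicate 1, 101 intervals (96.2%) lay within 2-fold and 86 (81.9%) within 1.5-fold, and the median margin, the distance from a difference to either bound, was 0.35 in place of 0.42. The count within 1.5-fold was thus over 1.5 times larger without this 1 library. It was 32, of 103 tested, without Dnmt3l WT replicate 2. Intervals for each mutation alone, from the fit with 4 groups, were wider, with a median margin of 0.65 for *Dnmt3l* and 0.58 for *Pld6*. In the Dnmt3l line 71 of the 105 lay within 2-fold and 7 within 1.5-fold. In the Pld6 line 68 lay within 2-fold and 19 within 1.5-fold.

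**Figure D2:**
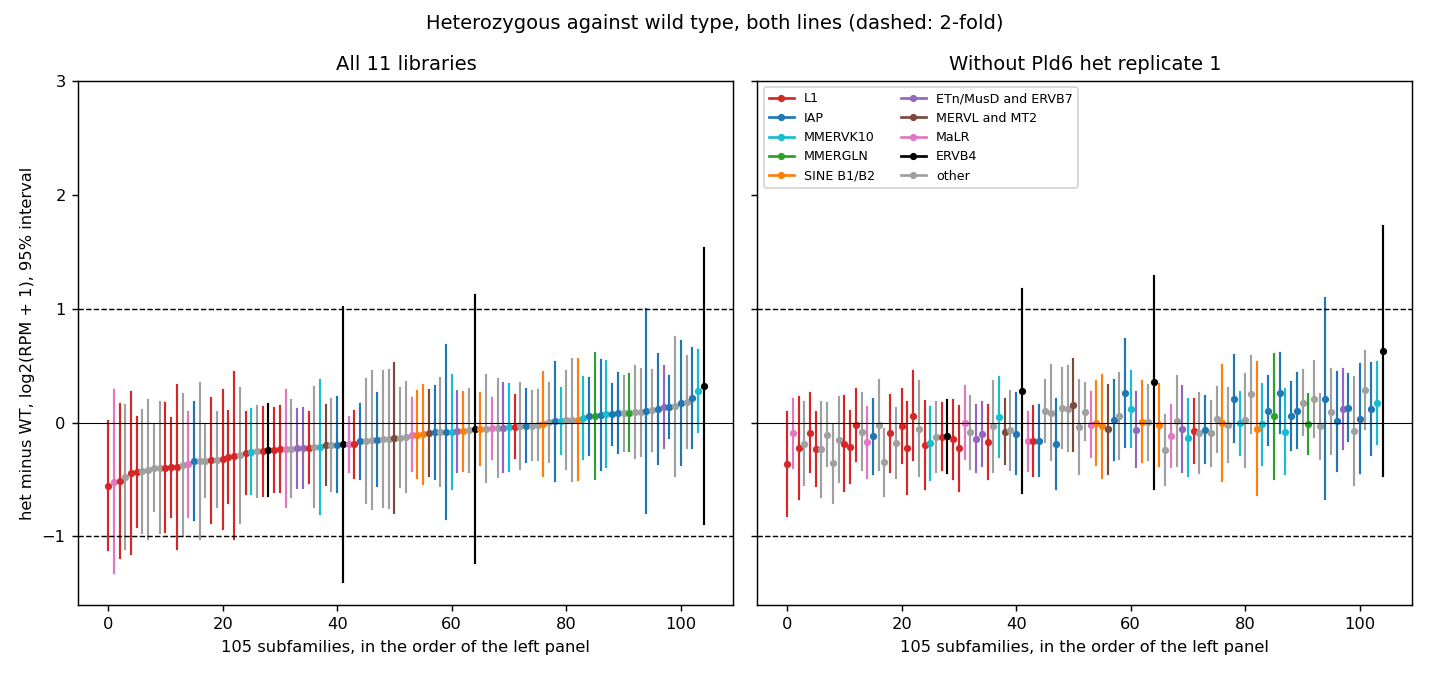
Heterozygous minus wild type on the log2(RPM + 1) scale (points) with its 95% interval (lines) for the 105 tested subfamilies, coloured by family and ordered by the difference with all 11 libraries (left). The right panel keeps that order and leaves out Pld6 het replicate 1. Dashed lines mark a 2-fold change, within which 93 intervals lie on the left and 101 on the right.

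The L1 subfamilies lay at the negative end. All 18 tested L1 subfamilies, MusHAL1 included, had a negative difference, with a median of -0.31 against -0.13 over all 105, and 0 passed the threshold. The count was 17 of 18 after rescaling and 17 of 18 without Pld6 het replicate 1, where the median was -0.17. L1Md_Gf_5end, the promoter-containing region of a young L1 subfamily, had the most negative difference of the 105. Its RPM was 12.1 and 12.6 in Dnmt3l WT, 9.78, 9.86 and 8.77 in Dnmt3l het, 8.79, 12.4 and 15.2 in Pld6 WT, and 3.89, 14.5 and 5.43 in Pld6 het. The Dnmt3l het libraries all lay below their wild types, as they did for 26 of the 105 subfamilies (24.8%). The Pld6 het libraries ranged from below to within theirs. The difference was -0.55 with an interval from -1.12 to 0.01 (adjusted p = 0.72), and -0.36 with an interval from -0.82 to 0.10 without Pld6 het replicate 1.

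L1Md_A_5end, the corresponding region of another young L1 subfamily, spread most in Pld6 het. Its RPM was 8.58 and 9.51 in Dnmt3l WT, 8.86, 10.4 and 7.71 in Dnmt3l het, 7.95, 12.6 and 12.3 in Pld6 WT, and 2.21, 11.7 and 4.97 in Pld6 het. The 2 genotypes overlapped in both lines. The interval ran from -1.19 to 0.16 with all libraries and from -0.67 to 0.23 without Pld6 het replicate 1, so that a 2-fold decrease lay inside the first and outside the second. L1Md_A_3end, the 3′ region of the same subfamily, had one of the 5 narrowest intervals, from -0.31 to 0.24, around a difference of -0.04 with adjusted p = 0.93. In Pld6 het replicate 1 this 3′ region was at 36.0 RPM, the highest value of the 11 libraries, while the 5′ region was at 2.21 RPM, the lowest.

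L1_Mm_orf2, the ORF2 region and the most abundant L1 entry, was at 202 and 184 RPM in Dnmt3l WT and at 152, 167 and 172 RPM in Dnmt3l het. It was at 159.6, 204 and 196 RPM in Pld6 WT and at 126, 229 and 122 RPM in Pld6 het. The Dnmt3l het libraries again lay below both wild types, and the Pld6 het libraries lay on either side of theirs. The difference was -0.26 with an interval from -0.63 to 0.10 (adjusted p = 0.72). A further 2 entries of this list were among the 5 lowest p-values of the negative differences. L1_Mus1_3end had a difference of -0.39 (interval from -0.83 to 0.04), and MusHAL1, an L1-like element, had a difference of -0.43 (interval from -0.91 to 0.05), both with adjusted p = 0.72. MusHAL1 was at 3.54 RPM in Pld6 het replicate 1 and at 8.50 RPM or more in the other 10 libraries, and without that library the differences of L1_Mus1_3end and MusHAL1 were -0.22 and -0.23. For the 6 tested L1 5′ regions the median difference was -0.36, and for the 12 other L1 entries it was -0.28. These medians were -0.15 and -0.17 without Pld6 het replicate 1, so their order depends on that library.

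The L1 values moved with single Pld6 het libraries. Without Pld6 het replicate 1 all 18 L1 intervals lay within 2-fold, against 13 with it. Without Pld6 het replicate 2, which had the highest summed L1 RPM of the 11 libraries, 9 did, the L1 median was -0.50, and 20 of all subfamilies were lower at an unadjusted p under 0.05 where 2 were before, with 0 past the threshold and a smallest adjusted p of 0.16.

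The differences of the IAP subfamilies, LTR elements that still move in laboratory mice, were centred near 0. Of 17 tested, 10 differences were positive and 7 negative, with a median of 0.05 and a range from -0.34 to 0.21, and all 17 intervals lay within 2-fold. Without Pld6 het replicate 1 this held for 16 of 17, with a highest upper bound of 1.09. With a pseudocount of 0.1 it held for 12 of 17. IAPEz-int, the internal region of the most abundant IAP, was at 76.5 and 86.5 RPM in Dnmt3l WT, at 82.6, 98.3 and 85.3 RPM in Dnmt3l het, at 64.3, 90.7 and 72.8 RPM in Pld6 WT, and at 81.8, 80.2 and 69.8 RPM in Pld6 het. The groups overlapped in both lines. Its difference was 0.07 with an interval from -0.20 to 0.34 (adjusted p = 0.92), the second narrowest of all, so that an increase of 1.27-fold or more lay above it. Its LTR IAPLTR1_Mm, at 2.22 to 4.26 RPM, had a difference of -0.03 (interval from -0.35 to 0.29). IAPA_MM, at 0.89 to 3.62 RPM, had a difference of 0.17 (interval from -0.37 to 0.72). IAP1-MM_I (0.14, interval from -0.13 to 0.41) and IAPEy-int (0.21, interval from -0.22 to 0.65) were among the 5 lowest p-values of the positive differences, both with adjusted p = 0.78.

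MMERVK10C had the lowest p of all positive differences. It was at 159.6 and 181 RPM in Dnmt3l WT and at 168, 235 and 152 RPM in Dnmt3l het. It was at 124, 126 and 169 RPM in Pld6 WT and at 235, 178 and 154 RPM in Pld6 het. Heterozygous and wild-type values overlapped in both lines. The difference was 0.28 with an interval from -0.09 to 0.64 (adjusted p = 0.72), and 0.17 with an interval from -0.19 to 0.54 without Pld6 het replicate 1, in which it was highest among the 6 Pld6 libraries. RLTR10C, its LTR, had a difference of 0.01 (interval from -0.27 to 0.30). Over the 8 tested MMERVK10 entries 4 differences were positive and 4 negative, and all 8 intervals lay within 2-fold (5 with a pseudocount of 0.1). MMERGLN-int (2.24 to 7.51 RPM) and MMERGLN_LTR (1.38 to 2.75 RPM), the parts of a gammaretrovirus-like element, had differences of 0.06 (interval from -0.49 to 0.61) and 0.09 (interval from -0.25 to 0.43).

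**Figure D3:**
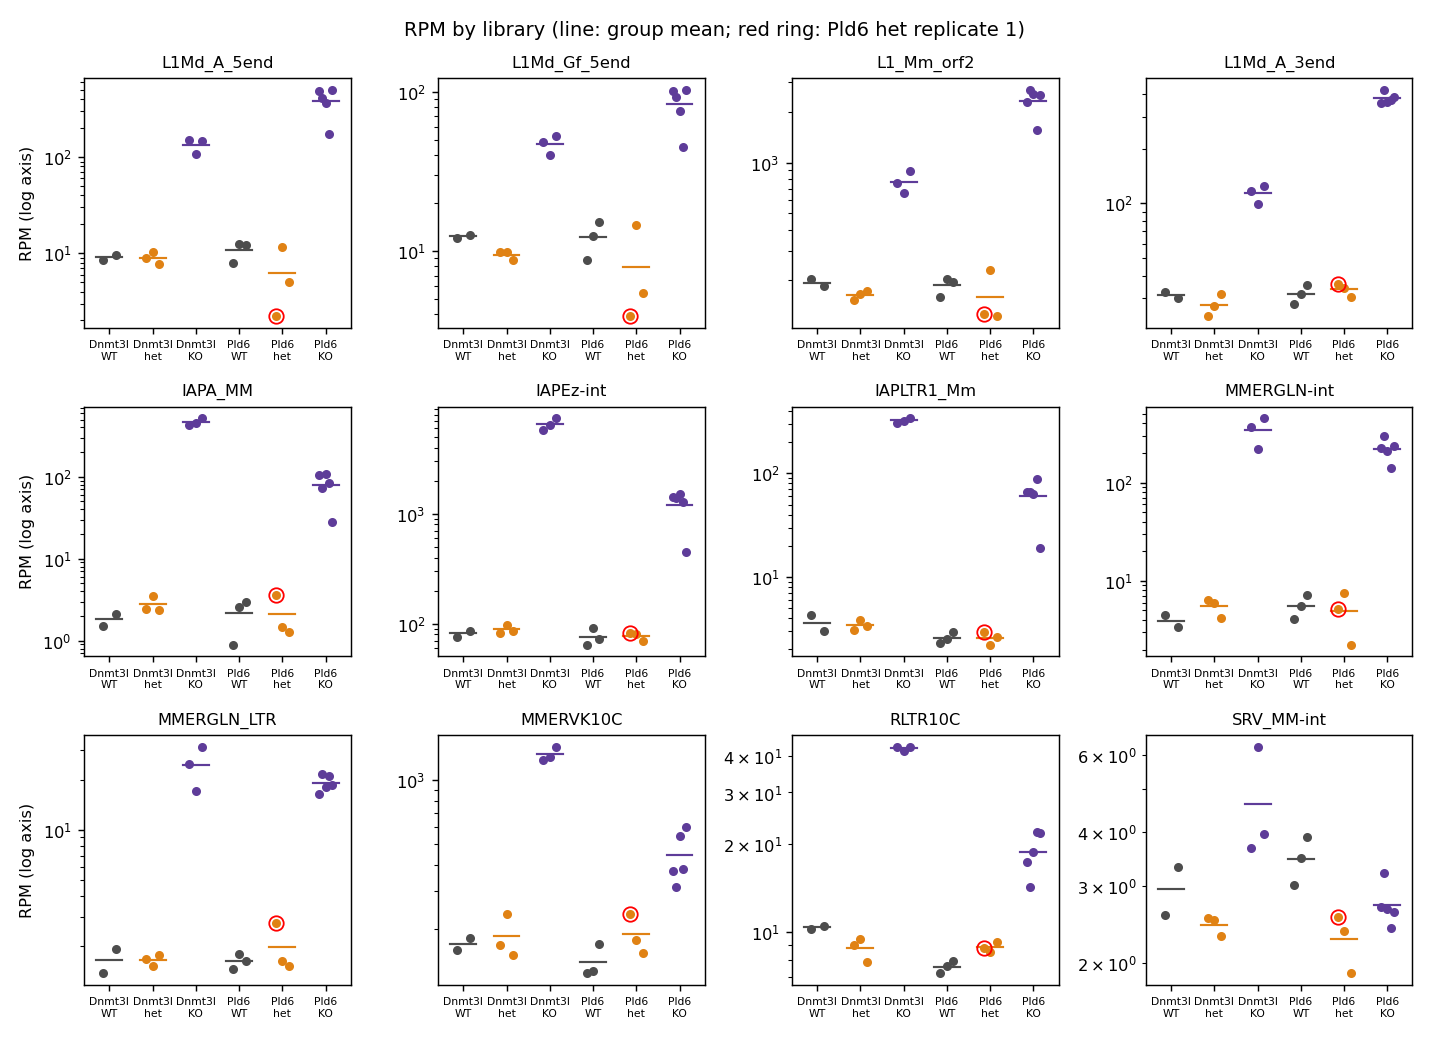
RPM (log axis) in each of the 19 libraries for the 11 subfamilies that the study names and for SRV_MM-int. Points are libraries, horizontal lines are group means, and a red ring marks Pld6 het replicate 1. In the 11 named subfamilies the heterozygous points lie among or near the wild-type points and below every KO point, and for SRV_MM-int the 6 heterozygous points (1.89 to 2.55 RPM) lie below the 5 wild-type points (2.57 to 3.88 RPM).

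SRV_MM-int, an internal region of an ERVK-type endogenous retrovirus, was the only one of the 105 subfamilies in which the heterozygous and wild-type libraries did not overlap (0 above, 0%, and 1 below, 0.952%). It was at 2.57 and 3.32 RPM in Dnmt3l WT and at 2.53, 2.50 and 2.30 RPM in Dnmt3l het. It was at 3.02, 3.47 and 3.88 RPM in Pld6 WT and at 2.55, 2.37 and 1.89 RPM in Pld6 het. Separation within each line follows from this and adds nothing to it. The highest heterozygous and the lowest wild-type library of the Dnmt3l line were almost equal, at 2.53 and 2.57 RPM. The difference was -0.33 with an interval from -0.65 to -0.02 (unadjusted p = 0.042, adjusted p = 0.72 by limma), and -0.35 with an interval from -0.65 to -0.05 without Pld6 het replicate 1. In KO it was at 3.66 to 6.27 RPM for *Dnmt3l* and at 2.40 to 3.22 RPM for *Pld6*, with group means of 4.62 and 2.72 RPM, against 2.44 and 2.27 RPM in the heterozygous groups. RLTR20C2_MM, an LTR, was the other subfamily with an unadjusted p under 0.05. The 6 heterozygous libraries ranged from 0.88 to 1.43 RPM with a median of 1.30, and the wild-type libraries were at 1.83, 1.38, 1.58, 3.10 and 2.00 RPM. The ranges overlapped only between 1.38 and 1.43 RPM. The difference was -0.40 with an interval from -0.77 to -0.02 (unadjusted p = 0.040, adjusted p = 0.72 by limma).

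The most abundant subfamilies were SINEs. B2_Mm1a ranged from 1079 to 1343 RPM in Dnmt3l het and was at 1290 and 969 RPM in Dnmt3l WT, but ranged from 314 to 519 RPM in Pld6 het and from 226 to 653 RPM in Pld6 WT. The level thus separated the lines and not the genotypes, and the difference of heterozygous from wild type was 0.03 (interval from -0.50 to 0.56). The differences of B2_Mm1t (-0.01) and B2_Mm2 (-0.05) were as small, and the 6 tested B1 and B2 entries all had an interval within 1.5-fold. Without Pld6 het replicate 1 this held for 5 of the 6. The narrowest interval of all belonged to MT-int, the internal region of a MaLR-type LTR element, with a difference of -0.19 and an interval from -0.43 to 0.05. MTA_Mm, an LTR of the same group, had a difference of -0.05 and an interval from -0.32 to 0.22. For the other lists, the median difference was -0.21 over 6 MaLR entries, -0.08 over 5 ETn/MusD and ERVB7 entries, -0.13 over 3 MERVL and MT2 entries and -0.14 over 36 further subfamilies, with 0 past the threshold in each. MMETn-int, the internal region of ETn elements, and LTRIS2, an LTR, had differences of 0.14 (interval from -0.22 to 0.49) and 0.18 (interval from -0.22 to 0.58).

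Intervals reached beyond 2-fold for 12 subfamilies. Upward, only 3 did, all of the ERVB4 group of endogenous retroviruses. ERVB4_1B-I_MM spread widely within groups. It was at 21.0 and 14.8 RPM in Dnmt3l WT, at 80.8, 39.6 and 19.8 RPM in Dnmt3l het, at 8.48, 66.1 and 21.1 RPM in Pld6 WT and at 9.16, 46.1 and 13.7 RPM in Pld6 het. The groups overlapped in both lines, and the difference was 0.32 with an interval from -0.89 to 1.53 (adjusted p = 0.92). ERVB4_1B-LTR_MM and ERVB4_1-I_MM were also highest in Dnmt3l het replicate 1 (12.7 and 8.28 RPM) and Pld6 WT replicate 2 (10.2 and 9.85 RPM), and had intervals from -1.40 to 1.02 and from -1.23 to 1.12. IAPEY4_I, at 7.22 to 28.4 RPM, had the next widest interval, from -0.79 to 0.99. Downward, 11 intervals passed 2-fold, those of 5 L1 entries, of ERVB4_1B-LTR_MM and ERVB4_1-I_MM, of ORR1A0 and of 3 further subfamilies. ORR1A0, a MaLR-type LTR, was at 11.05 to 19.2 RPM in 10 libraries and at 1.68 RPM in Pld6 het replicate 1. Its difference was -0.52 with an interval from -1.32 to 0.28, and -0.09 with an interval from -0.40 to 0.21 without that library.

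For the 24 tested subfamilies listed at 0 in Pld6 het replicate 1 the median difference was -0.20, 23 of 24 were negative and 3 intervals lay within 1.5-fold. Without the library the median was 0.06, 10 were negative and 19 intervals lay within 1.5-fold. For the 81 others the median moved from -0.08 to -0.05. The 24 were picked by their value of 0 in this heterozygous library. Their lean to negative differences with it and their upward shift without it therefore follow largely from that choice.

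*Dnmt3l*+/- and *Pld6*+/- are different mutations, so whether 1 common difference describes both was tested as an interaction. No subfamily passed (0 of 105, 0%, smallest adjusted p 0.93 by limma), with 0 positive and 1 negative (0.952%) at an unadjusted p under 0.05. This subfamily was MMERVK10D3_LTR. It was at 6.01 and 4.60 RPM in Dnmt3l WT, at 3.88, 3.04 and 3.69 RPM in Dnmt3l het, at 3.46, 2.80 and 3.77 RPM in Pld6 WT and at 7.05, 4.84 and 3.95 RPM in Pld6 het. The heterozygous libraries lay below every wild type in the Dnmt3l line and above every wild type in the Pld6 line. The difference between the lines was -0.98 (unadjusted p = 0.015, adjusted p = 0.93). IAPLTR2a2_Mm (-0.68) and RLTR13B3 (1.10) came next, with unadjusted p of 0.068 and 0.086, and RLTR13B3 was at 0 RPM in Pld6 het replicate 1. The interval of the difference between the lines lay within 2-fold for 31 of the 105 subfamilies (29.5%), so for the other 74 a 2-fold difference between the 2 mutations was not outside the interval. Again 0 passed without Pld6 het replicate 1 (smallest adjusted p 0.95 by limma, with 0 positive and 1 negative at an unadjusted p under 0.05), and the median difference between the lines was -0.07 in place of 0.17. In the Pld6 line 78 of the 105 differences were negative with that library and 53 without it, and the median was -0.22 with it and near 0 without it.

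**Figure D4:**
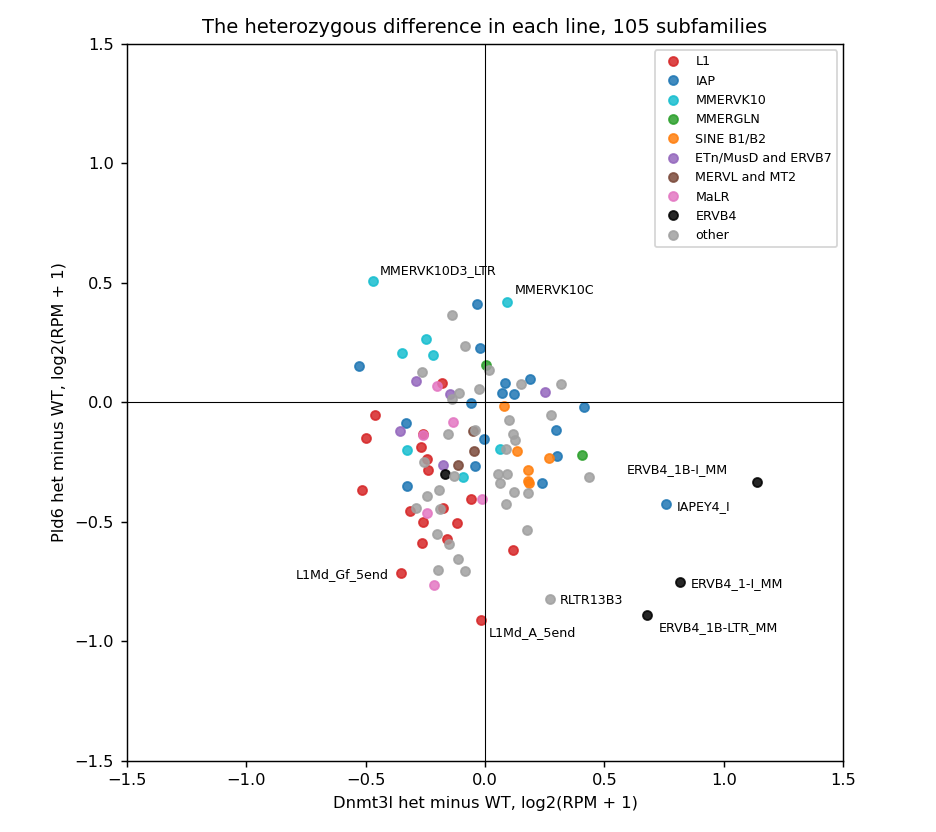
Heterozygous minus wild type on the log2(RPM + 1) scale in the Dnmt3l line (x axis) and in the Pld6 line (y axis) for the 105 tested subfamilies, coloured by family, with 9 of the named subfamilies labelled. Of the points, 57 have the same sign in both lines, 47 of them negative, the correlation across subfamilies is r = -0.16, and MMERVK10D3_LTR lies at -0.47 and 0.51.

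Within the Dnmt3l line alone 0 of 105 passed (0% in either direction, smallest adjusted p 0.97 by limma), and 0 had an unadjusted p under 0.05. This fit shares its spread with the Pld6 libraries. With the 5 Dnmt3l libraries alone, 0 passed (smallest adjusted p 0.081, that of ERVB4_1B-I_MM, with a difference of 1.14), and 5 were higher and 5 lower at an unadjusted p under 0.05. All heterozygous libraries lay below both wild types for 26 subfamilies (24.8%) and above both for 5 (4.76%). Those below included 10 of the 18 L1 entries, among them L1Md_Gf_5end, L1_Mm_orf2 and MusHAL1, and 5 of the 8 MMERVK10 entries, RLTR10C among them. Within the Pld6 line 0 of 105 passed (0% in either direction, smallest adjusted p 0.71), with 1 higher (0.952%) and 3 lower (2.86%) at an unadjusted p under 0.05. Among the 3 was L1Md_A_5end, with the most negative difference of this line. Its difference was -0.91 with an interval from -1.79 to -0.03 (unadjusted p = 0.043, adjusted p = 0.71 by limma). The heterozygous libraries lay below every wild type for SRV_MM-int and RLTR20C2_MM (2 subfamilies, 1.9%) and above for MMERVK10D3_LTR and RLTR10C (2 subfamilies, 1.9%). RLTR10C thus lay below wild type in one line, with a difference of -0.22, and above it in the other, with 0.20. Without Pld6 het replicate 2, 3 subfamilies were lower in the Pld6 line past the threshold, L1Md_A_5end by -1.42, L1Md_Gf_5end by -1.20 and RLTR20C1_MM, an LTR, by -1.12 (adjusted p from 0.022 to 0.024), and this call rests on the removal of that library.

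Summed over families, the RPM of the 6 heterozygous and 5 wild-type libraries overlapped in each of the 10 families. Summed L1 RPM was 589 and 527 in Dnmt3l WT, 424, 462 and 480.3 in Dnmt3l het, 433, 574 and 564 in Pld6 WT and 344, 631 and 384 in Pld6 het. All 3 Dnmt3l het libraries lay below their wild types, as they did for 24.8% of the tested subfamilies. The Pld6 het libraries held both the highest and the lowest value of the 11. The mean log2 difference over both lines was -0.27 (p = 0.12 and adjusted p = 0.66 by a two-sided exact permutation test within lines over 200 arrangements, which cannot give a p below 0.005), and -0.19 without Pld6 het replicate 1. The lowest p was that of summed MaLR RPM, with a difference of -0.15 (exact permutation p = 0.10, adjusted p = 0.66), which was -0.12 without Pld6 het replicate 1. Summed MMERVK10 RPM differed by 0.22 (exact permutation p = 0.19), and by 0.13 without Pld6 het replicate 1. Summed IAP RPM differed by 0.08 (exact permutation p = 0.52) and the sum of all 259 subfamilies by -0.04 (exact permutation p = 0.69). The smallest adjusted p over the 10 families and the total was 0.66.

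**Figure D5:**
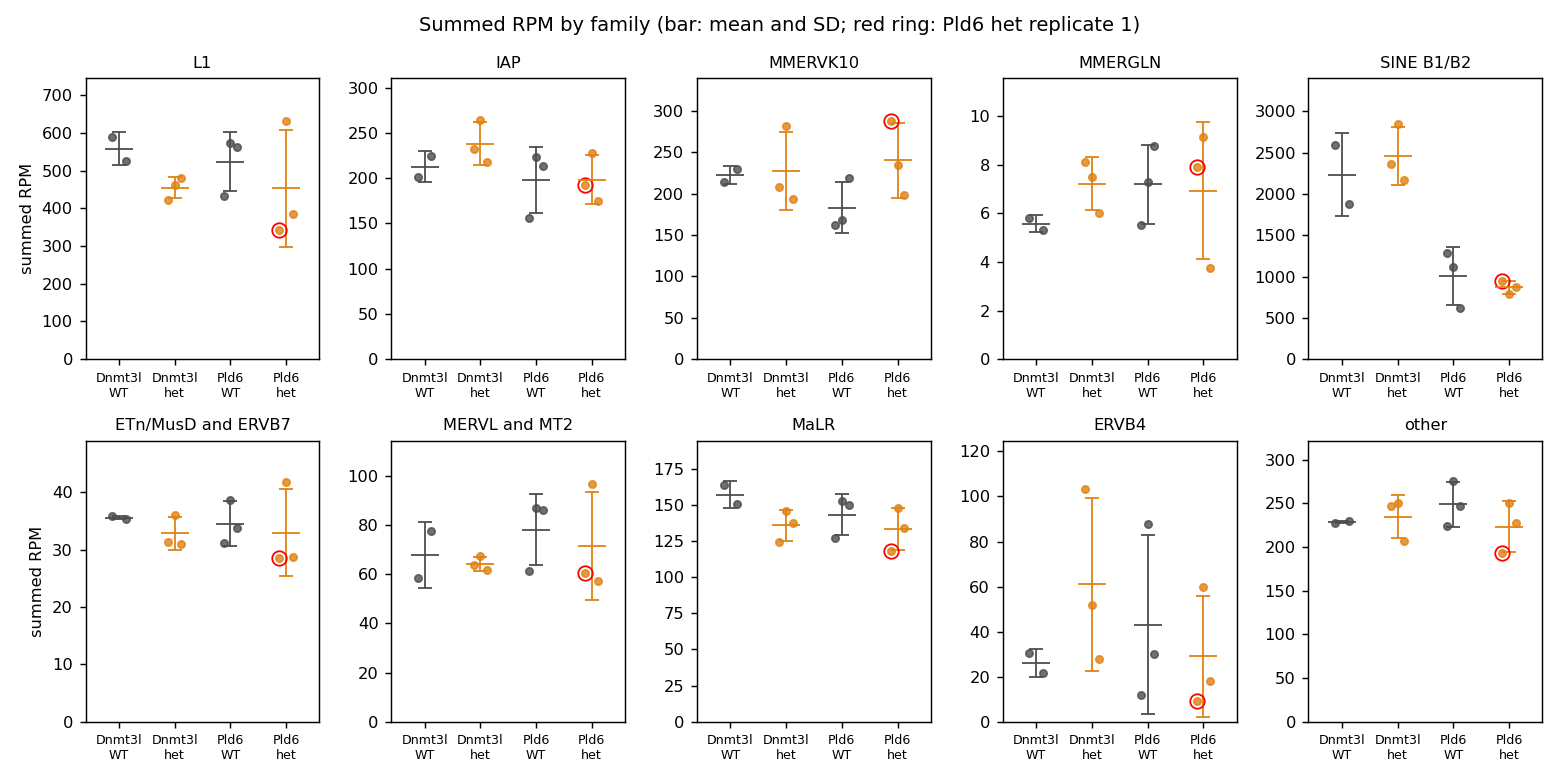
Summed RPM by family in the 11 libraries, with a panel for each of 10 families, points for libraries, and a bar with whiskers for the group mean and SD. A red ring marks Pld6 het replicate 1. In the L1 panel the Pld6 het libraries span 344 to 631 and the Dnmt3l het libraries lie at 424 to 480.3, below the 2 Dnmt3l WT libraries.

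The loss of both copies gives a scale for these intervals. KO libraries were set against heterozygous libraries of the same line, a contrast that uses no wild-type library, over the 114 subfamilies that passed the RPM minimum in all 19 libraries. In the Dnmt3l line 53 subfamilies (46.5%) were higher and 6 (5.26%) lower in KO than in heterozygous libraries. In the Pld6 line 52 (45.6%) were higher and 1 (0.877%) lower (limma, adjusted p under 0.05). Rescaling to a common median ratio lowered the median difference by 0.54 and 0.38 on the log2 scale in the 2 lines. After it, 27 were higher and 8 lower in the Dnmt3l line, and 29 higher and 12 lower in the Pld6 line. The factors came from 33 retrotransposon subfamilies and were 1.09 to 1.44 in KO libraries and 0.66 to 0.95 in the others. Rescaling thus divides out a rise that these subfamilies share in KO, together with any difference of scale. Without Pld6 het replicate 1, 67 (58.8%) and 37 (32.5%) were higher. The Dnmt3l contrast uses no Pld6 library, and its median difference stayed at 0.55. Its count moved only through the spread that the fit shares across groups. Of the families, 15 of 20 IAP entries were higher in each KO, and 10 and 12 of 18 L1 entries. After rescaling these counts were 12 and 15 for IAP and 5 and 6 for L1.

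The 11 subfamilies that the study names were all among those higher in both KOs, and after rescaling 11 were in the Dnmt3l line and 9 in the Pld6 line. The study names them mainly for their rise in these same KO mice, so this count largely follows from how the list was made. IAPEz-int was at 88.7 ± 8.36 RPM in Dnmt3l het (SD, n = 3) and at 6547 ± 833 RPM in Dnmt3l KO (SD, n = 3), a difference of 6.19 ± 0.33 (SE). In the Pld6 line it was at 77.3 ± 6.52 RPM in het (SD, n = 3) and at 1206 ± 434 RPM in KO (SD, n = 5), a difference of 3.83 ± 0.30 (SE). Beside these stand the heterozygous minus wild-type differences of the 4-group fit, 0.12 with an interval from -0.31 to 0.55 and 0.04 with an interval from -0.34 to 0.42. L1Md_A_5end was at 8.99 ± 1.35 and 135 ± 23.4 RPM in Dnmt3l het and KO, and at 6.31 ± 4.90 and 388 ± 131 RPM in Pld6 het and KO, differences of 3.76 and 5.87. The smallest of the 11 differences, that of RLTR10C in the Pld6 line, was 0.99, with 8.84 ± 0.37 RPM in het and 18.8 ± 3.27 RPM in KO.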

How the data were processed

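Poly(A) RNA of sorted spermatogonia from postnatal day 7 was sequenced by the authors as single-end reads of 50 bp from directional libraries and mapped with hisat2 to consensus sequences of mouse retrotransposons. The authors deposited RPM, their mapped reads normalized to a mapped total, for 259 subfamilies, with 1 table per sample. The hisat2 settings, the handling of reads that match more than 1 consensus sequence and the reads in that total are not given in the sources used here, so reads of near-identical subfamilies may be shared among them. The submitters' processing notes also name Trim Galore and the build mm10. Low values lay on a common step (within 0.0055 RPM) for 50.0% to 94.7% of them, too few to recover whole reads, so a count model was not used and counting intervals are not given.

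The log2(RPM + 1) values were modelled in limma 3.58.1 (R 4.3.3; lmFit, then eBayes with a mean-variance trend) for subfamilies with at least 1 RPM in at least 2 of the 11 libraries. The pooled model had genotype and line as terms, the models within lines and of the interaction had 4 groups, and KO against heterozygous used 6 groups and all 19 libraries. Tests were two-sided with Benjamini-Hochberg adjustment in each comparison and a threshold of 0.05, and 95% intervals came from the moderated standard error. A difference on this scale understates the change of low RPM. Summed RPM was compared by exact permutation within lines. The model was also run on simulated data with independent normal errors. Those data held no deviant library, so the run cannot show how a library such as Pld6 het replicate 1 affects the intervals. The methods count as many mice as there are libraries, so each library was taken as 1 mouse. Of the 10 pairs of libraries within a group, none shared more than 7 identical values above 0.

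The subfamilies named are those that the study names, the 5 most abundant, the 5 lowest p in each direction of the pooled model, the 3 lowest p of the difference between lines, and the 5 widest and 5 narrowest intervals. RLTR20C1_MM and ERVB2_1-I_MM were named after their values were seen. Families were formed by name. The members, lists and tests were chosen with earlier results of these data known. Alternatives were the pseudocount (0.5 and 0.1), the filter (none, or a mean of at least 5 RPM), rescaling to a common median ratio, no line block, other limma settings, array weights, all 19 libraries, the libraries of a line alone, a replicate block and each library left out in turn. Rescaling took its factors from the 33 retrotransposon subfamilies with at least 5 RPM in every library compared. Tables, permutations and figures were made in Python 3.11.15 with scipy 1.17.1, pandas 2.3.3, numpy 2.4.6 and matplotlib 3.10.9. Retrotransposon sequences were not used here.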

Additional observations from a re-analysis of the deposited data

Results flagged for a closer look

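The 88 groups examined each held the 6 heterozygous or the 5 wild-type values of 1 quantity. Of them, 9 held a library far from the others of its genotype by Dixon's test, and 5 of the 9 were Pld6 het replicate 1. Chance flags about 1 group in 20 where groups are not chosen by their values. Many of these subfamilies were chosen by p-values or intervals from these same libraries, so that rate does not apply here. That library listed 159 subfamilies at 0, against 65 to 81 in the other heterozygous libraries. It had MusHAL1 at 3.54 RPM (others 8.50 to 11.4), ORR1A0 at 1.68 RPM (others 11.7 to 15.6), RLTR13B3 at 0 RPM (others 1.81 to 3.63) and MMERGLN_LTR, as the highest value, at 2.75 RPM (others 1.52 to 1.77). What set this library apart was not tested. Pld6 het replicate 2 had the highest summed RPM of MERVL and MT2, 96.9 against 57.3 to 67.5. Pld6 het replicate 3 had the lowest SRV_MM-int, 1.89 RPM against 2.30 to 2.55. Among the wild types, Pld6 WT replicate 1 was lowest for MT-int, at 44.7 RPM against 50.5 to 51.6, and for MTA_Mm, at 42.6 RPM against 49.7 to 52.7. These groups hold both lines, so a difference between the lines also enters the range.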

How the results depend on the processing

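In the pooled comparison 0 subfamilies passed the threshold under any of the 22 alternatives. The number of intervals within 2-fold, 93 of 105, was 61 with a pseudocount of 0.1, 221 of 234 with no filter and 43 of 50 with a mean of at least 5 RPM, and between 82 and 101 with each library left out in turn. Within the Dnmt3l line, 1 subfamily passed with no filter (ERVB2_1-I_MM, -0.23). With the libraries of the Pld6 line left out in turn, 0 to 3 passed in that line. For KO against heterozygous libraries, rescaling gave 27 higher in the Dnmt3l line and 29 higher and 12 lower in the Pld6 line, and leaving out libraries gave 46 to 67 and 4 to 6, and 37 to 65 and 0 to 2. Same-numbered wild-type and heterozygous libraries deviated together with r = 0.19 and 0.32 in the Dnmt3l line and 0.28, 0.47 and -0.25 in the Pld6 line. For libraries with different numbers r ran from -0.32 to 0.03 and from -0.60 to 0.24. Deviations were taken from group means, so the 2 Dnmt3l wild types mirror each other exactly. Some negative values for different numbers are therefore forced. With 2 or 3 libraries a group these values cannot decide whether the numbers pair mice. The labels name no pairing, so none was used in the main models. With the replicate block, 0 passed in the pooled comparison and 2 in the Dnmt3l line (ERVB4_1B-I_MM, 1.63, and IAPEY4_I, 1.13). In the difference between the lines 4 passed (the same 2, ERVB4_1B-LTR_MM and ERVB4_1-I_MM), and 2 were lower in Pld6 KO. That block gives Dnmt3l het replicate 3, which has no same-numbered wild type, no weight against wild type. ERVB4_1B-I_MM lay within the range of the Dnmt3l wild types in that library. The block also leaves few libraries to estimate each spread. In the pooled comparison, of 693 values for the 32 named subfamilies under alternatives, 0 passed the threshold and 58 changed sign, as did 18 of 154 for summed RPM. Read depth is unknown and 2 or 3 libraries a group limit every interval. The cause of these changes was not tested.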
